A study of Mus musculus with 12 samples.

Results

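Runx1, Rhou, Gse1, Irf2bp2, Tomm20, Lsm4, Hipk2, Efnb2 and Gas8 are 9 mouse genes that each lay nearest to 6 or more peaks of a Mirlet7d ChIRP-seq library. In ChIRP-seq, biotinylated probes that pair with an RNA draw down the chromatin it sits on, and the DNA is sequenced. The genes were chosen by this measured peak number, from 3192 genes nearest to at least 1 of 4286 peaks, so the number itself is a description and not a finding. Their peaks number 68. The 9 genes are 9 of 17 genes at or above 6 peaks, which are 0.533% of all genes nearest to a peak.

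The study used MLE-12 cells, a mouse lung epithelial line immortalised by the simian virus large T antigen, which the surfactant protein C promoter drives in lung epithelium. All 12 libraries of the series came from this line, with 1 library in each group, so the values have no replicate error. In the ChIRP group, with the label Mirlet7d under its gain-of-function tag, chromatin met 150 pmol of biotinylated tiling probes against mature Mirlet7d for 4 h; its reference was a ChIRP input library of the same line. In the pull-down group, cells received 25 nM of biotinylated Mirlet7d, and RNA was captured on streptavidin after 48 h; its reference was an input RNA library. Neither assay has a capture without Mirlet7d or its probes among the samples. The processed tables analysed list peaks of the ChIRP library, and transcripts whose pull-down value was at least 2.5 times the input value. Being selected lists, they cannot check the cell type by level: of 12 lung epithelial markers 1, Lamp3, was in the mRNA table, and of 6 markers of blood, vessel and connective tissue cells none was.

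Mirlet7d belongs to the let-7 microRNAs. A microRNA is best known for guiding Argonaute proteins to messenger RNAs by pairing through its seed, and let-7 microRNAs are known for holding back growth and favouring differentiation, in lung as in other tissues. Some microRNAs also occur in the nucleus, where chromatin and nascent RNA are within their reach. The 9 genes do not form a pathway. Runx1, Irf2bp2 and Gse1 encode regulators of transcription, Hipk2 a nuclear kinase, Efnb2 and Rhou proteins of membrane signalling, Lsm4 a protein of RNA processing, Tomm20 a mitochondrial import receptor and Gas8 a protein of motile cilia.

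The mature microRNA that the probes and the biotinylated molecule represent is printed with its seed, bases 2 to 8, in capitals (RefSeq, GRCm38.p6, chr13:48536078-48536099, minus strand).
mmu-let-7d-5p: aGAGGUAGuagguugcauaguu
The RefSeq promoter table, with windows of 250 bases before to 50 after a start, held 12 windows for 8 of the 9 genes. The letters CTACCTC, which pair with the seed, searched on both strands (GAGGTAG on the other), were in 1 of the 12, against 3.85% of all 32851 windows of the table. It was the window of Efnb2, shown for that match, whose letters in capitals begin 150 bases before the start (GRCm38.p6, chr8:8661193-8661492, minus strand).
Efnb2 promoter: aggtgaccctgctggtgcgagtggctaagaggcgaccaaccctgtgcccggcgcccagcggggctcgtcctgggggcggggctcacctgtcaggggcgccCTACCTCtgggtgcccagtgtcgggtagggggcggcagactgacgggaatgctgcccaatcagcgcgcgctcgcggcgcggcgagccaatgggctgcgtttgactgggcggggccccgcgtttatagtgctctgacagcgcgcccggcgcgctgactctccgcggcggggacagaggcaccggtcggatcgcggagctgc
The window at the distal start of Runx1 is shown because a peak lay 85 to 667 bases upstream of that start (GRCm38.p6, chr16:92826025-92826324, minus strand). Capitals mark the letters ACCACA, the reverse complement of TGTGGT, the core letters recognised by RUNX proteins.
Runx1 distal promoter: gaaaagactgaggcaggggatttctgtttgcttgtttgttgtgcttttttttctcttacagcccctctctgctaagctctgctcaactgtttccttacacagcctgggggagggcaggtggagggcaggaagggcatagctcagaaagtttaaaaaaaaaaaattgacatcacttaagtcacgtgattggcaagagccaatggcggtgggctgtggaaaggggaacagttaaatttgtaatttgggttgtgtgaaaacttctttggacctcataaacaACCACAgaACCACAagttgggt
These letters, searched on both strands and chosen after the data had been seen, occurred 2 times here, beginning 28 and 36 bases after the start. Both copies lie outside the peak, whose near edge was 85 bases before the start. The letters were in 4 of the 12 windows, those of Runx1, Gas8, Hipk2 and Rhou, against 16.8% of all windows. A match of letters is a description of the window and does not show a site.

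By peak number Rhou came first of the 9 genes with 10, followed by Runx1 with 9. Gse1, Irf2bp2 and Tomm20 had 8 each, Lsm4 had 7, and Hipk2, Efnb2 and Gas8 had 6 each. The other genes at or above 6 were Rn4.5s with 15, Mir29b-1 with 8, Slc6a6 and Trim8 with 7 each, and Iqsec1, Rara, Sept9 and Znrf2 with 6 each. Just outside lay 17 genes with 5 peaks, of which Zfpm1, Bcar1 and Cuedc1 had the highest summed scores. Most genes near a peak, 2471 of 3192, had 1.

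**Figure D1:**
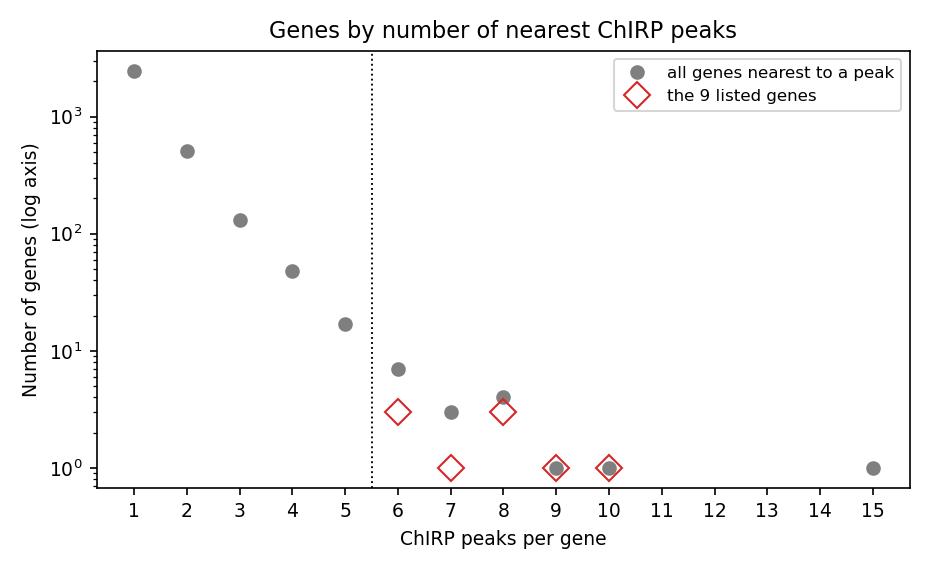
Number of genes (log axis) by the number of ChIRP peaks nearest to them, for all 3192 genes (grey) and for the 9 listed genes (open diamonds); the dotted line marks the threshold of 6 peaks. The count falls to 17 genes at 5 peaks, and the listed genes lie between 6 and 10.

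Rhou, Gse1, Irf2bp2, Tomm20, Lsm4, Efnb2 and Gas8 are on chromosome 8, Hipk2 is on chromosome 6 and Runx1 on chromosome 16. Chromosome 8 held 53 of the 68 peaks of these genes (77.9%), against 15.8% of all peaks. This share depends on which genes were listed. Of the genes with 6 or more peaks, all 7 on chromosome 8 were listed, but 1 of 6 on chromosome 6. None was listed of the 2 on chromosome 11 and the 1 on chromosome 19. All 17 genes with 6 or more peaks were on the 5 chromosomes with the most peaks per Mb, which are 19, 8, 11, 6 and 16. Those carried 3.94 to 5.54 peaks per Mb, with 5.15 on chromosome 8, and every other chromosome carried 0.993 or less. The part of this difference between chromosomes in the peak numbers of single genes was not tested.

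The surroundings of the 9 genes differed once their own peaks, which the choice fixed, were left out. In 1 Mb centred on a gene's peaks, peaks of other genes numbered 28 around Lsm4, which is 5.44 times the chromosome mean, and belonged to 18 genes. Around Gse1, Hipk2, Irf2bp2, Tomm20, Rhou and Gas8 they numbered 12 to 21, or 2.72 to 4.08 times the mean. At Gas8 and Rhou, and at Irf2bp2 and Tomm20, these include the peaks of the other gene of the pair. Around Runx1 there were 5, or 1.27 times the mean of chromosome 16, and around Efnb2 there were 0. Peaks were given to the nearest start, so these counts also depend on how far apart annotated starts lie. At Efnb2 the gene's own peaks spread over 787.8 kb, so the 0 does not describe surroundings apart from the gene's own peaks.

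The peaks carry the authors' MACS score, which serves here to rank and filter peaks within the list. Its lowest value was 30.01. If it is −10 times the log10 of a p-value, as MACS commonly writes it, a score of 30 stands for 0.001 and 50 for 1e-05, but its formula is not given in the sources used here. The median score was 36.21 for the 68 peaks of the 9 genes and 34.26 for the 4218 peaks of other genes, and 9 of the 68 (13.2%) reached 50, against 9.89%. Gas8 and Rhou held 5 of those 9, and without these genes 4 of 52 (7.69%) reached 50. Among the other 8 genes with 6 or more peaks, 24 of 61 (39.3%) did. Like most of the list, most of the 68 peaks were near the lower end of the score range. A score of 40 was reached by 30.88% of them, against 24.75% of other peaks. The 68 peaks were intergenic in 48 cases (70.6%), against 39.5% of other peaks, and intronic in 16 (23.5%), against 42.9%. Promoter peaks numbered 2 (2.94%), against 9.55%. The median distance from a peak's centre to the transcription start site (TSS) was 40.8 kb for the 9 genes, against 14.1 kb for the other peaks. For the other 8 genes with 6 or more peaks it was 14.4 kb. These values come from the same list that chose the genes and were given no test.

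**Figure D2:**
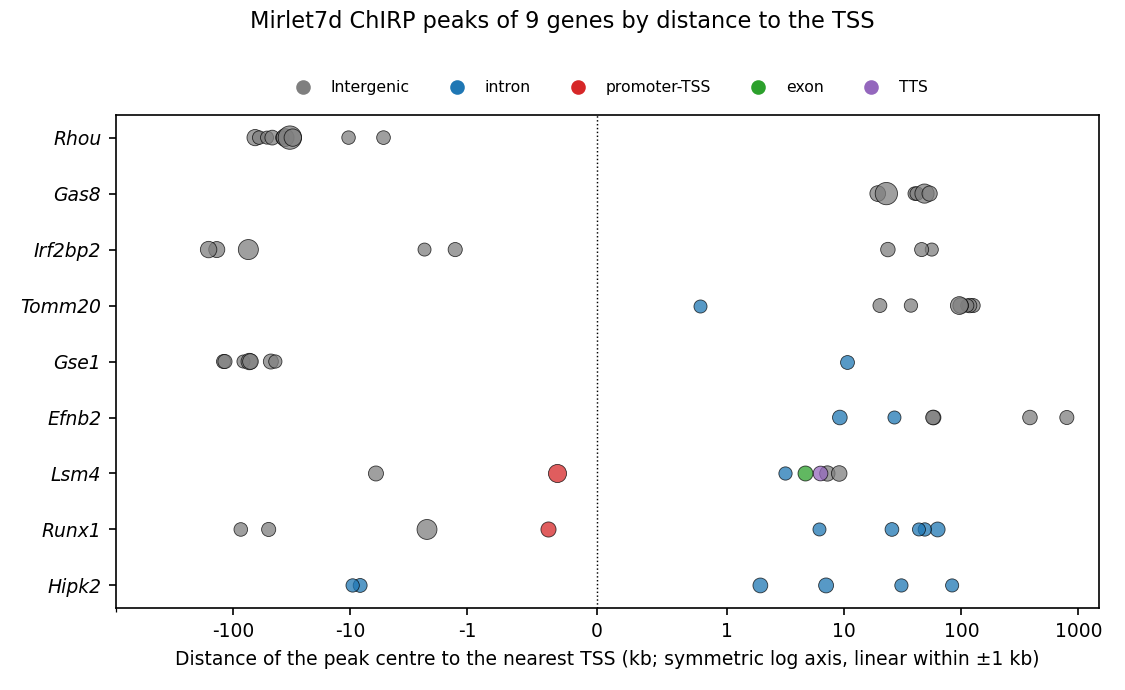
Distance of each peak's centre to the nearest TSS in kb (symmetric log axis; negative is upstream in the gene's direction) for the 9 genes, coloured by deposited class, with point area in proportion to the MACS score. Rhou has all 10 peaks upstream, Gas8, Tomm20 and Efnb2 have all of theirs downstream, and only the peaks of Lsm4 all lie within 10 kb.

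Runx1 encodes a DNA-binding transcription factor of the RUNX family, best known for its part in the formation of blood stem cells, and is transcribed from a distal and a proximal promoter. Its 9 peaks spread over 277.8 kb of chromosome 16 (mm9). In order along the chromosome, their scores were 39.31, 33.44, 31.63, 30.14, 30.14, 40.60, 70.38, 35.35 and 32.87. The sixth and seventh lie just upstream of the distal start. The promoter peak, chr16:92826404-92826986, had its centre 376 bases upstream of that start. The strongest, chr16:92828066-92828968, had its centre 2198 bases upstream. The peaks before them in this order were the 5 intronic ones of the gene, which is read from the minus strand, and the last 2 lay 49.5 and 85.6 kb upstream of the distal start. The proximal start had no peak within 10 kb, since the nearest centre was 25.5 kb downstream of it.

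Irf2bp2 encodes a corepressor that binds the factor IRF2, and all of its 8 peaks were classed as intergenic. Their scores along chromosome 8 were 30.49, 35.05, 37.12, 35.51, 30.15, 71.13, 45.60 and 48.04. The fourth and the fifth, chr8:129118133-129119064 and chr8:129119403-129119886, had centres 1262 and 2308 bases upstream of the start, and the fourth was annotated as a CpG island. The strongest, chr8:129190342-129191915, lay 73.8 kb upstream. The 3 downstream peaks lay 23.6, 45.8 and 55.9 kb from the start, beyond the end of a gene whose RefSeq length is 5.7 kb.

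Gse1 encodes a coiled-coil protein linked to complexes of the demethylase LSD1 with the corepressor CoREST. Its 8 peaks covered a span of 131.3 kb, with scores along the chromosome of 35.48, 35.59, 30.54, 47.96, 43.58, 40.07, 31.18 and 34.21. The first 7 were classed as intergenic, with centres 43.4 to 120.1 kb upstream of the start, and the eighth lay in intron 1, 10.5 kb downstream. None lay within 10 kb of that start. The deposited annotation placed all 8 against a single start, whereas RefSeq of GRCm38.p6 has 3 promoter windows for Gse1 and a gene length of 352.9 kb. Whether the intergenic class of these peaks would change with that transcript set was not tested, as coordinates were not carried between the builds.

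Hipk2 encodes a nuclear serine/threonine kinase that acts on p53 and on transcriptional corepressors. It was alone among the 9 genes in having every peak in an intron, with 6 of 6 in intron 1 or 2. Their scores were 30.62, 31.16, 34.32, 31.63, 39.65 and 38.97, so none reached 40. The closest to a start, chr6:38823967-38824572, had its centre 1920 bases downstream of the distal start. The pair chr6:38794989-38795828 and chr6:38796300-38797119, separated by 472 bases, lay 8185 and 9486 bases upstream of the inner start.

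Efnb2 encodes ephrin-B2, a membrane-bound ligand of EphB receptors known from the formation of arteries. Its 6 peaks were the most scattered, over 787.8 kb or 7.62 peaks per Mb, with scores of 35.18, 37.53, 37.49, 37.92, 30.26 and 38.06. All lay downstream of the start. The last 2 were in introns 2 and 1, 26.8 and 9.17 kb from the start. The first and second, chr8:7864205-7864782 and chr8:8274947-8275490, were 796.3 and 385.6 kb away and belong to Efnb2 only because no annotated start lay closer.

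Lsm4 encodes a subunit of the ring-shaped LSM complexes, which bind U6 small nuclear RNA and take part in messenger RNA decay. Its 7 peaks were the most compact, in 15.9 kb or 440 peaks per Mb of their span, and covered the gene from upstream to past its end. The scores along the chromosome were 39.98, 58.28, 31.28, 39.88, 38.51, 41.59 and 42.92. The first was intergenic, 5999 bases upstream of the start. The second and strongest, chr8:73196216-73197429, was the promoter peak, with its centre 308 bases upstream. The next ones lay in an intron, in exon 3 of 5 and at the transcription end, and the last 2 followed at 7169 and 9049 bases downstream of the start. The gaps were short, with a median of 0.92 kb and a smallest of 215 bases. With peaks closer than 5 kb joined, Lsm4 had 1. A window of 100 kb from the first Lsm4 peak held 14 peaks. They were 7 of Lsm4, 3 of Mpv17l2, 2 of Jund and 1 each of Gm3336 and Pde4c. Over all 4286 windows begun at a peak, the median was 1 and 30 windows (0.7%) held 10 or more. The choice of genes fixed the Lsm4 peaks, so setting the 14 beside that share cannot show crowding around the gene. Windows at Gas8 and Rhou (6 and 8 peaks) and from Rtbdn to Tnpo2, without a listed gene, also held 14. The surroundings without own peaks are described by the 1 Mb count given above, 28 for Lsm4.

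Gas8, a subunit of the nexin-dynein regulatory complex of motile cilia, and Rhou, an atypical small GTPase linked to cell adhesion and actin, are neighbours on chromosome 8. Their peaks formed a continuous group, with 16 peaks in 111.4 kb, all 16 between the start of Gas8 and the start of Rhou. None of another gene lay among them, which follows from giving peaks to the nearest start. The scores along the chromosome were 43.80, 88.08, 32.50, 33.62, 65.19 and 41.02 for the 6 peaks linked to Gas8. For the 10 linked to Rhou they were 46.83, 32.48, 30.34, 38.84, 32.25, 55.72, 96.87, 53.62, 32.30 and 33.22. The highest score of the 9 genes was thus at chr8:126144556-126145884, whose centre lay 32.6 kb upstream of Rhou, and the next highest at chr8:126064898-126066342, 22.9 kb downstream of the Gas8 start.

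All 16 were intergenic, and the link to either gene followed from distance alone. The gap between the last peak given to Gas8 and the first given to Rhou was 15.4 kb, shorter than the longest gap inside the group, 19.4 kb. No Gas8 peak lay within 10 kb of its start, and 1 Rhou peak did, at 5170 bases upstream.

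These 16 peaks were also broad and repeat-rich. Their median width was 1414 bases, and 12 of 16 (75%) were at least 1000 bases wide, against 9.62% of the 52 peaks of the other 7 genes. Among the other 8 genes with 6 or more peaks, 29 of 61 (47.5%) were that wide, with median widths of 2104 bases at Trim8 and 4153 at Rn4.5s, so broad peaks were not limited to this interval. The deposited annotation put 9 of the 16 (56.2%) on simple repeats, 5 on (TC)n and 4 on (CA)n. None of the 52 peaks of the other 7 genes was on a simple repeat. The whole list held 78 peaks on simple repeats, 15 of them on (CA)n, and its 5 peaks on (TC)n were all between Gas8 and Rhou. The part of the repeats in these peaks was not tested. Without peaks on rRNA, simple, satellite and low-complexity repeats, Rhou kept 5 and Gas8 2, while the other 7 genes kept all of theirs.

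**Figure D3:**
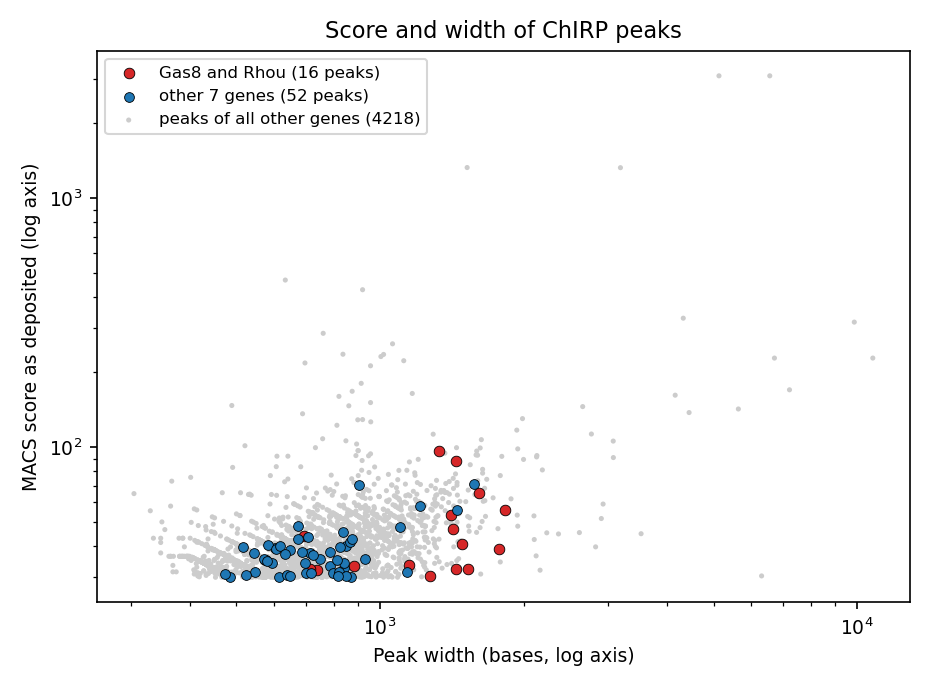
MACS score against peak width in bases (both log axes) for the 16 peaks of Gas8 and Rhou, the 52 peaks of the other 7 genes and the 4218 peaks of all other genes. Of the Gas8 and Rhou peaks, 12 of 16 are at least 1000 bases wide, with a median of 1414, and the other 7 genes have a median of 709.5.

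Tomm20, a receptor of the translocase that carries proteins through the outer mitochondrial membrane, is the neighbour of Irf2bp2 on the same chromosome. Its 8 peaks all lay downstream of its start, with scores along the chromosome of 35.17, 36.83, 30.82, 42.91, 56.06, 31.65, 34.18 and 30.31. The last, chr8:129468622-129469437, was in intron 1, with its centre 792 bases from the start. The strongest, chr8:129373007-129374457, lay 96.1 kb away. With RefSeq giving Tomm20 a length of 15.3 kb, the 7 intergenic peaks, at 20.1 to 126.1 kb, lay past its end.

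Together Irf2bp2 and Tomm20 had 16 peaks in 408.3 kb, 13 of them between the 2 starts, which are 352.5 kb apart. Here too the absence of peaks of another gene among them follows from giving peaks to the nearest start. The number of 16 equals that of the Gas8 and Rhou interval, but the density, 39.2 peaks per Mb, was below the 143.6 of that interval. The median width here was 710.5 bases, and no peak was on a simple repeat. Peaks covered 3.22% of the span, against 18.6% between Gas8 and Rhou.

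**Figure D4:**
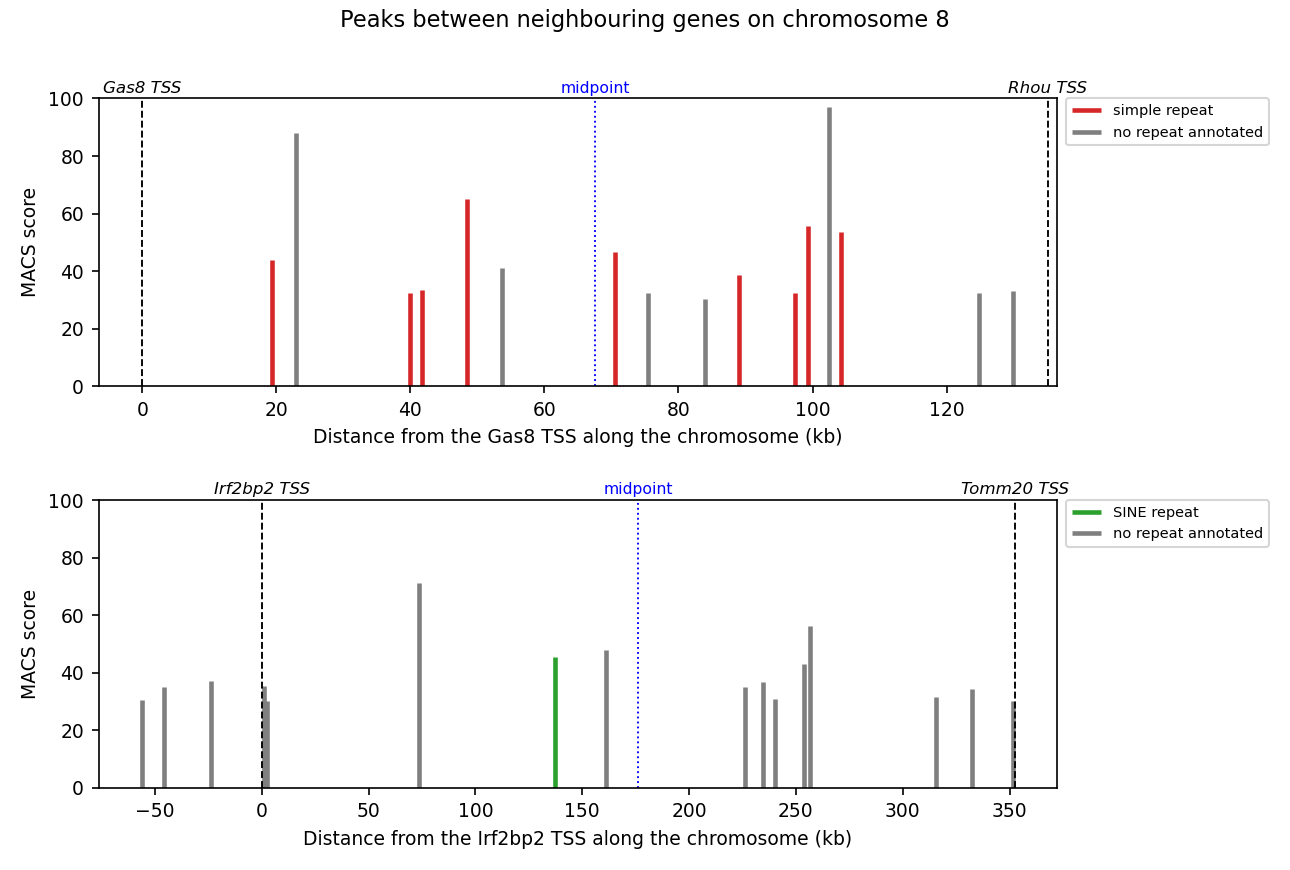
Peaks of Gas8 and Rhou (upper panel) and of Irf2bp2 and Tomm20 (lower panel) by distance along the chromosome from the first gene's TSS in kb, with the MACS score as bar height and the annotated repeat as colour; dashed lines mark the TSSs and the dotted line their midpoint, where the nearest gene changes. In the upper panel 9 of 16 bars are on simple repeats, and in the lower panel none is.

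Of 28 protein-coding neighbours, 2 on each side and not counting the 9 themselves, 18 had at least 1 peak, against 32.8% of protein-coding RefSeq genes on chromosomes 6, 8 and 16. Nearby genes share a region, so this count was given no test. Beside Runx1, the chloride channel gene Clic6 had 2 with scores of 49.6 and 51.88, and Setd4 had 4 between 38.04 and 56.41. Next to Gse1, Cibar2 had 3 between 33.36 and 45.47, and next to Tomm20, Rbm34 had 2 and the cell polarity gene Pard3 had 3. Around Efnb2, of 4 neighbours Fam155a had 1 peak and the other 3 had none.

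The pull-down, which the choice of the genes did not use, asks whether RNA of these genes was captured with Mirlet7d. Of the 9 genes, 1 was listed in the mRNA table, against 6.61% of all genes nearest to a peak. That gene was Lsm4, with 8.993 RPKM in the pull-down and 3.176 RPKM in the input, a deposited fold of 2.83. The values correspond to 2080 reads in the pull-down and 417 in the input. The exact 95% interval of their depth-scaled ratio, with reads counted singly, ran from 2.548 to 3.153, covering counting error only. Counted in read pairs, as for the ncRNAs below, it would be wider. The Lsm4 fold was close to the 2.5 that limits the table and below the table's median fold of 4.93. Its input level was far above the median input of 0.014 RPKM. However, RPKM was taken over the genomic span, introns included, which is 5504 bases for Lsm4. A longer span lowers RPKM, so these levels do not compare amounts of RNA between genes. The Lsm4 transcript spans chr8:73197147-73202651, and the peaks at the promoter, in the intron and in exon 3 overlap it by position. Among promoter-associated ncRNAs none of the 9 genes was listed, against 8.8% of all genes nearest to a peak. Of the other 8 genes with 6 or more peaks, Mir29b-1 was in that table and none was in the mRNA table. In 9 genes, 1 entry is near the background share.

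By position, 2 of the 68 peaks (2.94%) lay within 10 kb of any ncRNA candidate, against 12.4% of all peaks, and 1 overlapped one (1.47%), against 3.43%. Within 10 kb of an mRNA candidate there were 8 (11.8%), against 6.77%; 7 of these were the Lsm4 peaks and 1 was the intronic peak of Tomm20, 1638 bases from the Rbm34 transcript. Neighbouring peaks share a region, so they are not independent.

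The overlapping case was in Efnb2. Its intron 2 peak lay inside the ncRNA NONMMUT064496, chr8:8633287-8635073, which had 3.928 RPKM in the pull-down and 0.348 RPKM in the input, a fold of 11.29. With 105 reads in the pull-down and 6 in the input, the interval counted in read pairs ran from 3.696 to 57.06. A second ncRNA, NONMMUT064500, began 24.4 kb from the intron 1 peak, on the upstream side of the gene, with 3.661 RPKM in the pull-down and 0.073 RPKM in the input. Its fold of 50.15 was the highest near any of the 9 genes, and it rested on 2 input reads, with an interval of 8.775 to 2014. In Runx1, NONMMUT027744 lay 12033 bases from an intronic peak with 6.688 RPKM in the pull-down and 0.412 RPKM in the input, a fold of 16.23 from 302 and 12 reads and an interval of 7.292 to 44.97. The overlapping NONMMUT027745 had 13.514 RPKM in the pull-down and exactly 1 in the input, a value at which no read number could be recovered. These Runx1 transcripts, and the overlapping one in Efnb2, lie within the span of the gene, and strand is not stated for the counting, so their reads cannot be told apart from unspliced Runx1 or Efnb2 RNA. No candidate of either kind lay within 50 kb of a peak of Rhou, Gse1 or Irf2bp2.

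Relatives of the 9 genes were looked up in 10 lists of families and complexes. Of 72 genes in them other than the 9, 11 (15.3%) had a peak, against 12.1% of all genes with a curated RefSeq transcript, 11 were in the mRNA table, against 5.74% of those genes, and 7 were in the promoter-associated ncRNA table, against 6.16%. The lists were not chosen independently of these data, and no test was made on them. In the RUNX family, Runx3 had 1 peak with a score of 33.70, and its mRNA was listed at a fold of 4.62. Runx2, the factor of bone formation, had no peak, but its mRNA was listed at 17.5 and a promoter-associated ncRNA at 2.55. Runx2 mRNA had 0.175 RPKM in the pull-down and 0.01 RPKM in the input, below the levels of Lsm4 in both libraries. The genomic spans behind these RPKM differ in length, so they do not compare amounts of RNA. The partner subunit Cbfb was in none of the tables.

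Among the other LSM ring proteins, Lsm8 was listed as mRNA at 5.27 and as promoter-associated ncRNA at 8.52. Lsm3 was listed as ncRNA at 2.62 and 2.61, and Lsm5 had peaks but no pull-down entry. The Lsm8 ncRNA lies inside the span of the Lsm8 mRNA, and the Lsm3 ncRNAs overlap each other. These entries may therefore count the same reads. Lsm8 mRNA had 2.061 RPKM in the pull-down and 0.391 RPKM in the input. Among the ephrins and their receptors, Efna3 and Ephb3 had 1 peak each. Efnb3 mRNA, which encodes another ephrin of the B class, was listed at 8.92. The mRNA of the receptor gene Ephb2 was listed at 4.0, from 0.008 RPKM in the pull-down and 0.002 RPKM in the input. Those levels are close to the rounding to 3 decimals, so the Ephb2 fold is coarse. Of 7 further subunits of the translocase of the outer mitochondrial membrane, Tomm6 had a peak 250 bases from its start, and Tomm40l had a promoter-associated ncRNA at a fold of 3.44. Irf2, which encodes the factor that Irf2bp2 is named for, had 2 peaks with scores of 35.40 and 31.84. Of the other HIPK kinases, Hipk4 was listed as mRNA at 3.49. In the nexin-dynein list Iqcg had a peak with a score of 32.23 and Ccdc40 mRNA was listed at 7.5. The Ccdc40 fold is coarse as well, from 0.015 RPKM in the pull-down and 0.002 RPKM in the input. In the list of LSD1 and CoREST partners, Rcor2 had a peak with a score of 35.13, Rcor3 mRNA was listed at 2.56 and an Hdac1 promoter-associated ncRNA at 2.75.

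The standing of the 9 genes changed with how peaks were counted. At a score of at least 40 the 68 peaks became 21 (30.88%), against 24.85% of all peaks. Rhou and Gas8 kept 4 each, and Hipk2 and Efnb2 kept none. At a score of at least 50 there were 9 (13.24%), against 9.94% of all peaks, and Rhou kept 3 and Gas8 2. Of all 17 genes with 6 or more peaks, 1 stayed at that number at either score. Within 10 kb of the start 19 of the 68 (27.94%) were left, against 42.63% of all peaks, and Lsm4 alone stayed at 7. Within 100 kb 59 of the 68 and 3831 of all 4286 peaks were left. The losses among the 9 genes were at Gse1, Irf2bp2, Tomm20 and Efnb2. Joined over gaps of up to 5 kb, Runx1 and Irf2bp2 had 7 each and Tomm20 6, and the other genes had 5 or fewer.

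**Figure D5:**
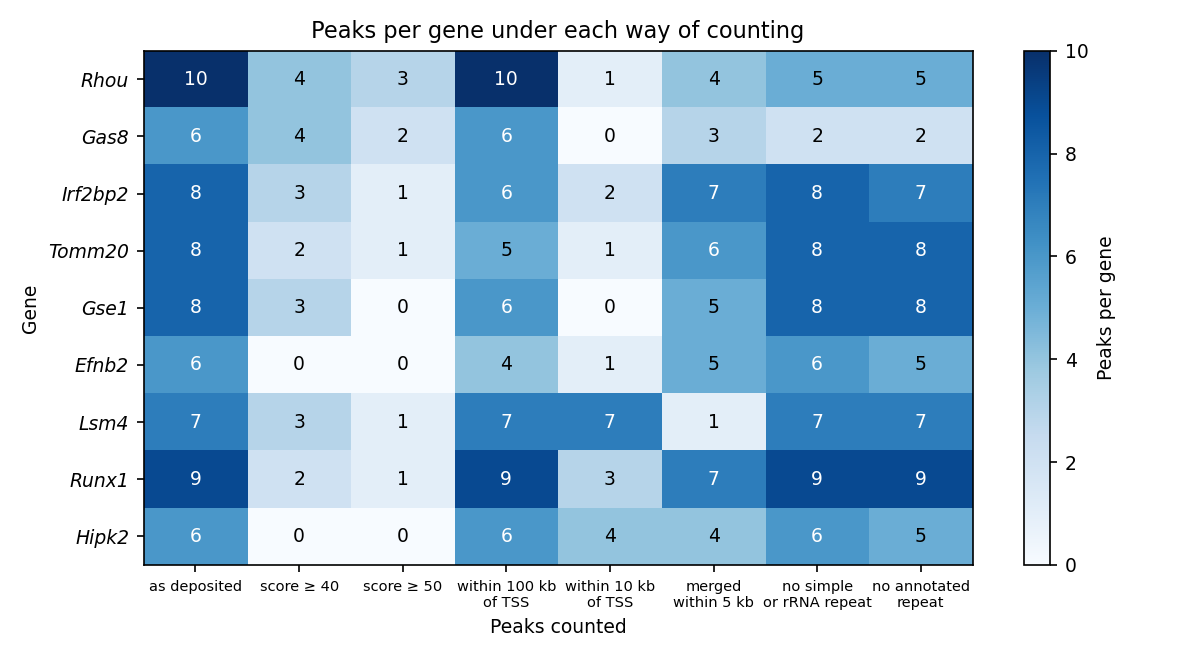
Peaks per gene for the 9 genes (rows) as deposited and under the 7 other ways of counting (columns), with the number in each cell and the colour scale from 0 to 10; the column without simple or rRNA repeats also leaves out satellite and low-complexity repeats. Runx1, Irf2bp2 and Tomm20 stay at 6 or more when close peaks are merged, Lsm4 alone does within 10 kb of the TSS, and no gene does at a score of at least 40.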

How the data were processed

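ChIRP-seq peaks of 1 library and RNA pull-down tables of 1 library with its input were analysed, of 12 libraries from MLE-12 cells. For ChIRP-seq the submitters' processing notes name MACS, HOMER, Bowtie2, SAMtools, bedtools and FastQC, with genome mm9. For the pull-down they name bedtools 2.15, Picard 1.119, HOMER, Trimmomatic, Bowtie2, SAMtools and FastQC. Which step each carried out is not given in the sources used here. The peak list holds the authors' score per peak, and the annotation gives class, nearest gene and distance to its TSS, per the file headers. The pull-down tables hold RPKM of pull-down and input, rounded to 3 decimals as deposited, and their ratio as the authors' fold. The sequencing depth of the ChIRP library is not known from the peak list.

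Peaks were assigned to genes by the deposited gene name. Whole reads were recovered from RPKM times length, where 99.7% to 100% of usable values lay within 0.15 reads of a whole number, at 42.02 M and 23.85 M reads for mRNA pull-down and input and 14.97 M and 9.66 M for ncRNA. Ratio intervals are exact Clopper-Pearson, 95%. For these, ncRNA reads were counted as pairs, since 79.2% of the recovered ncRNA input read numbers are even. The mRNA reads were counted singly, so the mRNA interval is too narrow if they too came in pairs. The recovery was tested on simulated data. PCR copies cannot be separated, and the RPKM of the mRNA and ncRNA tables was not compared. With 1 library per group, and genes selected on the peak list, no test between conditions was made. RefSeq of GRCm38.p6 gave names, neighbours, gene lengths and sequences.

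The genes and the lists of relatives were chosen with earlier results of these data known. The genes named are the 9, other genes at 6 or more peaks, up to 10 genes with 5 peaks by summed score, the 2 protein-coding neighbours on each side with a peak, listed relatives with an entry (those of Rhou, and 1 other, are not reported here), and up to 5 pull-down transcripts near peaks by fold. Alternatives were score, distance, merging, repeats, identifiers, overlap and a fold of at least 5. Python 3.11.15, pandas 2.3.3, NumPy 2.4.6, SciPy 1.17.1 and matplotlib 3.10.9 were used.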

Additional observations from a re-analysis of the deposited data

How the results depend on the processing

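Of the 9 genes, 0 stayed at 6 or more peaks at a score of at least 40 and 0 at 50, and of all 17 genes 1 stayed at 40 and 1 at 50. These score limits kept 1065 and 426 of all 4286 peaks. The count of all genes at 50 was added after the data had been seen. Within 10 kb of the TSS 1 of the 9 and 3 of all stayed, with peaks within 5 kb merged 3 and 3, and without any annotated repeat 5 and 11 (for all genes also added after the data had been seen). Within 100 kb, and without rRNA, simple, satellite and low-complexity repeats (the repeat setting also added for all genes), 7 and 15 stayed under each. Counted by Entrez number 17 genes stayed. By nearest RefSeq transcript 12 transcripts reached 6, among them those of 7 of the 9 genes, since the peaks of Runx1 and Hipk2 are divided among transcripts. At Runx1, the transcripts with 3 and 4 peaks have the same distal start, so that division is one of transcript names only. By position in place of name, 2 of the 9 genes had a peak overlapping a pulled-down transcript, and at a fold of at least 5 the count by name was 0. Neither count has a share of all genes nearest to a peak to set beside it. Peaks near an ncRNA candidate numbered 1 by overlap (1.47%, against 3.43% of all peaks). Within 50 kb they numbered 16, with no share of all peaks to set beside it. For mRNA candidates within 10 kb they numbered 8 (11.8%, against 6.77% of all peaks). The Lsm4 fold was 2.826 with 1 read added. Leaving out Gas8 and Rhou, chosen after the data had been seen, the median score was 1.28 above that of other peaks, against 1.95 with them. Of 63 peak counts of single genes, 30 stayed within 1.5 times. No paired analysis was possible because every group has 1 library. For the same reason no replicate could be left out, and peaks near the score threshold have no replicate check.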
